A study of Mus musculus with 16 samples.

Results

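Intrinsic cell death genes were followed through single-cell libraries of mouse dorsal root ganglia (DRG) as a set of 9 genes: the pro-survival genes *Bcl2*, *Bcl2l1* (encoding Bcl-xL) and *Bcl2l2* (Bcl-w), the pore-forming *Bax*, the BH3-only genes *Bcl2l11* (Bim), *Bbc3* (Puma) and *Hrk*, and the apoptosome genes *Apaf1* and *Casp9*. They were chosen by name, from what is known of the pathway, out of 49671 listed genes. Proprioceptors, the sensory neurons that report muscle stretch and tension, were compared between embryonic day (e) 15.5 and postnatal day (p) 1, and with the other cells captured at e15.5. The e15.5 data comprised 10 libraries of 96 wells from PvtdTom embryos, which carry a bacterial artificial chromosome transgene with tdTomato under the parvalbumin promoter. The p1 data comprised 6 libraries of 96 wells labelled Trpv1Cre; PvFlp; Ai65, where tdTomato needs both recombinases, and PvCre; Ai14, where it needs Cre from the parvalbumin locus. By the study's methods the former are 2 genotypes made with different Cre lines, Trpv1Cre-Basbaum and Trpv1Cre-Hoon, so that p1 holds 3 genotypes, each taken at thoracic and lumbar levels. The study reports that Trpv1Cre; PvFlp; Ai65 labels a subset of proprioceptors, which innervates back muscles, and PvCre; Ai14 the whole proprioceptor population. The labels do not give the line or the spinal level of single libraries, nor the animals behind them. According to the study's methods, tdTomato+ cells were sorted by flow cytometry at e15.5 and picked by hand at p1, after a longer collagenase digestion, while the labels give sorting for both ages. Age, mouse line, the mix of proprioceptor types that the lines label, and cell isolation therefore cannot be told apart in any difference between e15.5 and p1.

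In the intrinsic pathway, BH3-only proteins are induced or activated by stress or loss of trophic support and bind pro-survival BCL2 proteins. Once this restraint is exceeded, BAX and BAK permeabilise the outer mitochondrial membrane, and the released cytochrome c joins APAF1 in the apoptosome, which activates caspase-9. Developing DRG neurons depend on target-derived neurotrophins, with neurotrophin-3 acting through TrkC for proprioceptors, and neurons that lose this support die through this pathway.

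Values are counts of unique molecular identifiers (UMIs), each standing for 1 captured mRNA molecule, in wells with at least 10000 UMIs. Such wells numbered 871 of 960 at e15.5 and 369 of 576 at p1. Wells were classed by marker genes that include no cell death gene. Proprioceptor-like wells had at least 3 of *Pvalb*, *Runx3*, *Etv1* and *Ntrk3* detected at 1000 CPM (UMIs per 1000000 of the well or library sum) or more in all, *Avil* plus *Isl1* at 300 CPM or more, and glial markers under 500 CPM. They numbered 275 at e15.5 (median 120343 UMIs per well) and 244 at p1 (62323 UMIs), and neuronal markers were high at both ages, with sums of 10597 to 12409 CPM over the e15.5 libraries and 7252 to 11653 CPM over the p1 libraries. Although the labelled tissue is proprioceptive neurons throughout, 407 of the 871 e15.5 wells were connective tissue-like, with collagen markers at 1000 CPM or more. A further 57 unassigned p1 wells met the limits for *Pvalb*, *Runx3*, *Etv1* and *Ntrk3* but fell short of that for *Avil* plus *Isl1*. Whether they met the glial limit was not checked. UMIs were summed over the wells of a class within each library, so that libraries and not wells are the replicates. One of these sums was thin: p1 library 3 held 5 proprioceptor-like wells and 99974 UMIs, so that 3 UMIs, the most that a count of 0 allows, equal 30.0 CPM there.

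From e15.5 to p1, proprioceptor-like wells showed lower levels of 6 of the 9 genes and a higher level of 1. *Hrk* fell by far the most, 14.2-fold, followed by *Bcl2l1* at 2.48-fold and *Bax* at 1.62-fold. *Bcl2*, *Bbc3* and *Apaf1* fell by 1.42- to 1.48-fold, *Bcl2l2* rose 1.75-fold, and *Bcl2l11* and *Casp9* did not pass the test. The age difference was broad across the transcriptome: of 12578 genes tested, 30.2% were called higher at p1 and 31.5% lower, and the counts of members are to be read against these shares. Fold changes were scaled by trimmed mean of M-values (TMM). With library totals alone the median log2 change of all genes moved from -0.03 to -0.27 and the share of calls that were higher from 48.9% to 32.5%, with 2657 genes higher and 5530 lower. Each member called kept its direction and its call under that scaling.

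**Figure D1:**
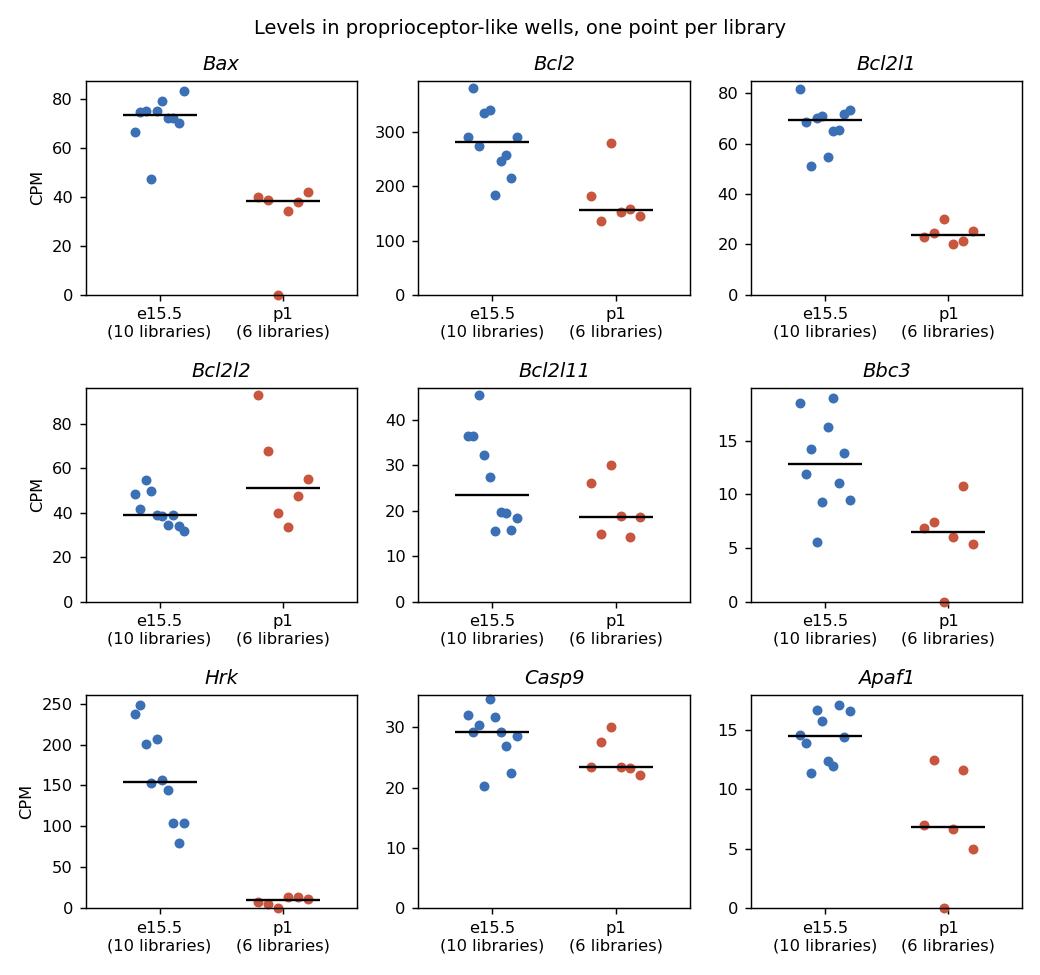
Level of each of the 9 cell death genes, in CPM on a linear axis from 0, in the proprioceptor-like wells of each library at e15.5 (10 points) and p1 (6 points); black bars are medians. In these CPM, which are without TMM, the ages do not overlap for *Hrk*, *Bcl2l1* and *Bax*. With TMM those of *Bax* would overlap. The p1 point at 0 for *Bax*, *Bbc3*, *Hrk* and *Apaf1* is the thin library 3.

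The BH3-only gene *Hrk* (harakiri; ENSMUSG00000046607, GRCm38 chromosome 5, positions 118164648 to 118189478, plus strand) is a neuronal gene induced when sympathetic and sensory neurons are deprived of trophic factor. Its RefSeq promoter window, chr5:118169514-118169813 on the plus strand of GRCm38.p6, is printed because *Hrk* carries the largest change. It lies inside the gene positions above, downstream of their start, as the RefSeq start is a different one. Beside it stand the windows of *Bcl2l2*, the gene that moved the opposite way (chr14:54883175-54883474, plus strand), and of *Bcl2l11* (chr2:128125788-128126087, plus strand), a textbook FOXO target. Each runs from 250 bases before to 50 bases after a RefSeq start, and capitals mark matches on either strand to the letters of the GC box, which are GGGCGG, or to those of the FOXO motif.
Hrk: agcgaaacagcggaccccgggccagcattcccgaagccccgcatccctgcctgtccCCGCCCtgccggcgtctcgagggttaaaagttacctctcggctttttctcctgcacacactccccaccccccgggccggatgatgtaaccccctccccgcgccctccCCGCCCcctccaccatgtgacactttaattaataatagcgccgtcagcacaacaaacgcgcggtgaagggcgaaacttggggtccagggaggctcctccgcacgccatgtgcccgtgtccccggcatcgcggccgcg
Bcl2l2: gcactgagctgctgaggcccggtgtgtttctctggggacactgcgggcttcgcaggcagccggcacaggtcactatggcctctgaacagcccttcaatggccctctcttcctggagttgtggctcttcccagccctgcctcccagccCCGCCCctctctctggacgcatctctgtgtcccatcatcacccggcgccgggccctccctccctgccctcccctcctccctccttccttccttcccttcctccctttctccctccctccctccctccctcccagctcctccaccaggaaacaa
Bcl2l11: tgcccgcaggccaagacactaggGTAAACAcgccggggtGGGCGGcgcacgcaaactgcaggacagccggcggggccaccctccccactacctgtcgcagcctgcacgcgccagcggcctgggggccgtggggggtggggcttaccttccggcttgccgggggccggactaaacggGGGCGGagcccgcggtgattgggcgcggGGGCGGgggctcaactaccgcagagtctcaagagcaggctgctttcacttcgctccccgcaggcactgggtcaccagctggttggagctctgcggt
All 9 members matched at least 1 of 14 such windows. A GC box stood in 11 windows, of 8 members, against 35.7% of all 32851 windows of that length. The FOXO letters, GTAAACA, stood in 2 windows, 1 of *Bcl2l11* and 1 of *Bbc3*, against 3.65% of all. The AP-1 motif (TGANTCA), held by 7.81% of all windows, stood in none of the 14. The same was true of the TATA box (TATAAA), held by 13.6%. These are matches of letters and not binding sites.

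*Hrk* ranged over the e15.5 libraries from 79.3 CPM through a median of 155 to 248 CPM. At p1 it ranged from 0 through a median of 9.87 to 13.6 CPM. The highest p1 library thus lay far below the lowest e15.5 library. The log2 fold change was -3.82 (SE 0.30; edgeR quasi-likelihood test, Benjamini-Hochberg adjusted p = 1.58e-09; 10 against 6 libraries). Absence of overlap in this direction held for 19.0% of all tested genes. The call kept its side of the threshold in all 34 other settings, with adjusted p from 1.35e-41 to 2.76e-07.

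The drop was also present per well. With each well thinned to 10000 UMIs, 57.5% of 275 proprioceptor-like wells at e15.5 held a *Hrk* UMI (exact 95% interval 51.4 to 63.4%) against 8.61% of 244 at p1 (5.41 to 12.9%). Without thinning the shares were 93.5% and 40.2%. In e15.5 connective tissue-like wells, which are not expected to express a neuronal gene, the thinned share was 6.39% of 407 (4.22 to 9.22%; median 27466 UMIs). The p1 share lay within this interval, which is not a test. These connective tissue-like wells are all of e15.5 libraries, and p1 held only 4, so they do not give a background for p1. With all UMIs, pooled *Hrk* was 9.11 CPM (182 UMIs) in the p1 proprioceptor-like wells. In the e15.5 connective tissue-like wells it was 5.63 CPM (69 UMIs). Whether the p1 level exceeds background was not tested. Intervals of wells cover counting error only.

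*Bcl2l11*, encoding a BH3-only protein held in check by trophic signalling, had e15.5 levels from 15.5 through 23.6 to 45.5 CPM and p1 levels from 14.1 through 18.7 to 30.0 CPM. The ages overlapped widely and the difference did not pass the test (log2 fold change -0.21, SE 0.23; edgeR quasi-likelihood test, Benjamini-Hochberg adjusted p = 0.459). The spread within e15.5 was wide, as libraries 1 to 5 held 27.4 to 45.5 CPM and libraries 6 to 10 held 15.5 to 19.8 CPM.

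Over the same e15.5 libraries *Hoxc10*, a homeobox gene of caudal segments, stood at 1.98 to 54.6 CPM in libraries 1 to 5 and at 115 to 146 CPM in libraries 6 to 10. *Hrk* was at 153 to 248 CPM in the former and 79.3 to 156 CPM in the latter, with ranges that touched. By the study's methods the e15.5 cells came from thoracic and lumbar ganglia, but the labels do not give the level of single libraries. The values are therefore given side by side without a test.

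**Figure D2:**
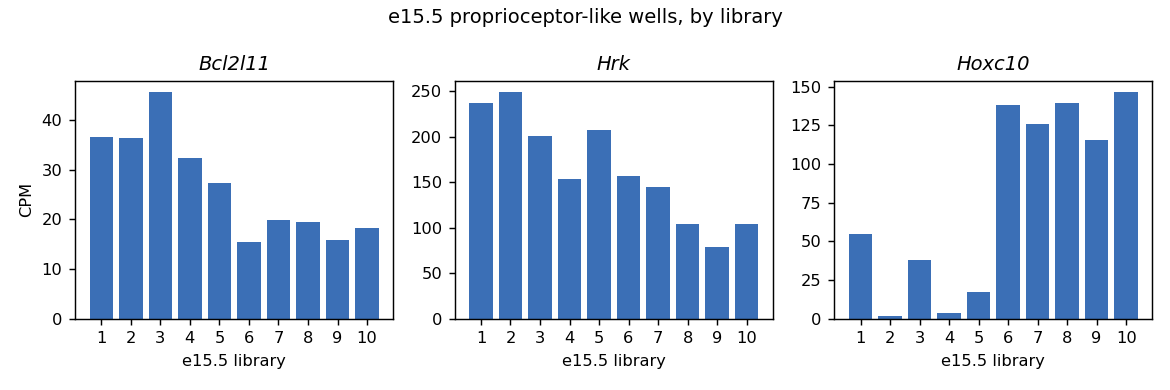
*Bcl2l11*, *Hrk* and *Hoxc10* in CPM (linear axes from 0) in the proprioceptor-like wells of each e15.5 library, 1 bar per library. *Bcl2l11* does not exceed 19.8 CPM in libraries 6 to 10, where *Hoxc10* is at 115 CPM or more.

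*Bbc3*, a BH3-only gene known as a target of p53 and FOXO factors, was at 5.55, 12.8 and 19.0 CPM in the lowest, median and highest e15.5 library. At p1 the corresponding levels were 0, 6.44 and 10.8 CPM. Most p1 libraries thus lay inside the e15.5 range. *Bbc3* fell by 0.56 on the log2 scale (SE 0.24), just past the threshold (edgeR quasi-likelihood test, Benjamini-Hochberg adjusted p = 0.0499). The call was lost in 9 of 17 other settings and on leaving out any 1 of 11 of the 16 libraries (e15.5 libraries 1, 2, 3, 6, 7 and 9 and p1 libraries 1, 2, 3, 4 and 6), with adjusted p over all settings from 0.00669 to 0.212.

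Among pro-survival genes, *Bcl2l1* (chromosome 2, positions 152780668 to 152831728, minus strand), whose product Bcl-xL maintains newly postmitotic neurons, was at 51.2, 69.3 and 81.8 CPM in the lowest, median and highest e15.5 library. At p1 it was at 20.1, 23.8 and 30.0 CPM. No p1 library reached the e15.5 range. *Bcl2l1* fell by 1.31 on the log2 scale (SE 0.11; edgeR quasi-likelihood test, Benjamini-Hochberg adjusted p = 3.93e-09), and the adjusted p stayed between 6.93e-28 and 8.32e-05 over the other 34 settings. The thinned share of wells with a UMI was 52.0% at e15.5 (45.9 to 58.0%) and 22.1% at p1 (17.1 to 27.9%).

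*Bcl2l2* (chromosome 14, positions 54883377 to 54888234, plus strand), encoding Bcl-w, was the member that rose. Its level was 32.0, 39.0 and 55.0 CPM in the lowest, median and highest e15.5 library and 33.5, 51.4 and 93.3 CPM at p1. The ages overlapped, with p1 libraries 1, 2 and 6 above every e15.5 library. The log2 fold change was 0.80 (SE 0.17; edgeR quasi-likelihood test, Benjamini-Hochberg adjusted p = 0.000321; 4.70e-05 to 0.0227 over the other settings). Within each library, the ratio of *Bcl2l2* to *Bcl2l1* UMIs ranged from 0.437 through 0.594 to 1.07 at e15.5 and from 1.33 through 2.20 to 4.05 at p1. The 2 ages were separate in this ratio, which does not depend on the scaling between libraries.

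*Bcl2* (chromosome 1, positions 106538178 to 106714274, minus strand), the founding member of the family, stood at 184, 282 and 381 CPM in the lowest, median and highest e15.5 library. At p1 it stood at 136, 155 and 280 CPM. In CPM without TMM, all p1 libraries except the thin library 3 lay below every e15.5 library. With the TMM factors, p1 libraries 1, 4 and 5 (0.920, 0.870 and 0.891) would lie above e15.5 library 6 (1.08). *Bcl2* fell by 0.56 on the log2 scale (SE 0.14; edgeR quasi-likelihood test, Benjamini-Hochberg adjusted p = 0.00184; 0.000100 to 0.0292 over the other settings). The ratio of *Hrk* to *Bcl2* UMIs within a library went from a range of 0.359 to 0.849 at e15.5 (median 0.596) to 0 to 0.0881 at p1 (median 0.0624).

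*Bax* (chromosome 7, positions 45461697 to 45466898, minus strand), whose loss is known to spare DRG neurons from developmental death, was at 47.1, 73.3 and 83.0 CPM in the lowest, median and highest e15.5 library. The p1 levels were 0, 38.1 and 42.0 CPM. In CPM without TMM, the 2 ages did not overlap, nor did they without p1 library 3, where *Bax* had 0 of 99974 UMIs. Divided by the TMM factors, 1.05 for e15.5 library 4 and 0.891 for p1 library 6, the ages would overlap. *Bax* fell by 0.69 on the log2 scale (SE 0.14; edgeR quasi-likelihood test, Benjamini-Hochberg adjusted p = 0.000242; 3.45e-07 to 0.0165 over the other settings). The ratio of *Bax* to *Bcl2* UMIs overlapped between the ages, at 0.141 to 0.429 in the e15.5 libraries and 0 to 0.289 in the p1 libraries.

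On the apoptosome side, *Apaf1*, the scaffold of the complex, was at 11.4, 14.4 and 17.1 CPM in the lowest, median and highest e15.5 library. The p1 levels were 0, 6.85 and 12.4 CPM, with p1 libraries 2 and 5 inside the e15.5 range. *Apaf1* fell by 0.50 on the log2 scale (SE 0.20; edgeR quasi-likelihood test, Benjamini-Hochberg adjusted p = 0.0347). This call was lost with the replicate block (-0.54), in wells of 30000 to 150000 UMIs, an alternative added after seeing the data (-0.34), and on leaving out e15.5 library 5, 8 or 10 or p1 library 1, 4 or 6, with adjusted p over all settings from 0.00269 to 0.212.

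*Casp9*, the initiator caspase, was at 20.3, 29.3 and 34.7 CPM at e15.5 and at 22.0, 23.5 and 30.0 CPM at p1. All p1 libraries lay inside the e15.5 range. The log2 fold change was 0.00 (SE 0.11; edgeR quasi-likelihood test, Benjamini-Hochberg adjusted p = 0.987), and its sign changed with the setting.

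Other values moved with age in the same wells. The median mitochondrial share of UMIs was 2.22 to 6.13% over the e15.5 libraries and 9.14 to 12.5% over the p1 libraries, the sum of *Avil* and *Isl1* was 1201 to 1799 CPM against 564 to 900 CPM, and blood and immune markers reached 401 CPM in 1 p1 library against at most 58.5 CPM at e15.5. Summed connective tissue markers were at most at 219 CPM at e15.5 and 92.1 CPM at p1, and the 6 glial markers at 8.54 to 44.0 and 0 to 58.2 CPM. At 10 CPM or more stood 3 of the 3 connective tissue and 0 of the 6 glial markers at e15.5, and 1 and 2 of them at p1. Mechanoreceptor markers, chiefly *Maf*, summed to a median of 28.7 CPM and at most 56.3 CPM at e15.5, and to a median of 103 CPM and at most 140 CPM at p1. The part of these values in the differences was not tested. In wells of 30000 to 150000 UMIs, and with the *Avil* plus *Isl1* limit at 100 CPM, both added after seeing the data, *Hrk*, *Bcl2l1*, *Bax*, *Bcl2* and *Bcl2l2* kept their directions and calls.

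The rest of the pathway, counted from named lists, moved in both directions. The counts of each list are also to be read against the 30.2% of all tested genes called higher at p1 and the 31.5% called lower. Of the other 12 BCL2 family genes, 9 could be tested: 1 rose, 4 fell and 4 did not pass, with a median log2 change of -0.29 against -0.03 over all tested genes. The genes that fell were *Bnip3l* (-0.58) and *Bcl2l13* (-0.58), both mitophagy receptors, the labile pro-survival gene *Mcl1* (-0.35) and the BH3-only gene *Bad* (-0.35), with edgeR quasi-likelihood test, Benjamini-Hochberg adjusted p from 0.00133 to 0.00444. With the replicate block *Mcl1* (-0.37, adjusted p = 0.0567) and *Bad* (-0.38, adjusted p = 0.0530) lost their calls in the same test, and with wells thinned to 10000 UMIs so did *Bnip3l* (-0.41), *Mcl1* (-0.36) and *Bad* (-0.33). *Bok*, a BAX-like gene named after its values were seen, rose by 1.08 (SE 0.33). *Bik*, *Pmaip1* and *Bcl2l10* had too few UMIs to test, at no more than 3.09 CPM in any library.

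Of 11 listed genes of the apoptosome and executioner side, 9 could be tested: 4 rose, 1 fell and 4 did not pass, with a median log2 change of 0.20. *Cycs*, the gene of cytochrome c, rose by 0.85, *Diablo*, whose product relieves caspase inhibition, by 0.56, and the mitochondrial flavoprotein gene *Aifm1* by 0.63 (edgeR quasi-likelihood test, Benjamini-Hochberg adjusted p from 4.26e-06 to 0.000421). The fourth that rose was *Endog* (0.71), a mitochondrial nuclease gene named after its values were seen. *Dffb*, a nuclease gene that acts in DNA fragmentation, fell by 1.11 on the log2 scale (SE 0.25; adjusted p = 0.000695 in the same test). The call of *Dffb* was lost with classes of whole clusters (-0.29) and that of *Aifm1* in thinned wells (0.61). *Casp6* and *Casp8* were too low to test.

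Of 5 inhibitor of apoptosis genes, 3 could be tested and all of them passed, where 30.2% of all tested genes were called higher and 31.5% lower. *Xiap*, which encodes a direct inhibitor of caspases, rose by 0.88 (SE 0.11) from a median of 63.9 to 102 CPM, and *Birc6* rose by 0.73 (SE 0.10). *Birc2* fell by 0.44 (SE 0.14), with edgeR quasi-likelihood test, Benjamini-Hochberg adjusted p from 6.72e-07 to 0.00963 over these genes. The call of *Birc2* was lost in thinned wells (-0.52) and in wells of 30000 to 150000 UMIs (-0.36). *Birc3* and *Birc5* were too low to test.

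Of 20 genes of trophic withdrawal and stress kinase signalling, 19 could be tested: 7 rose, 4 fell and 8 did not pass, with a median log2 change of 0.15. *Jun*, the transcription factor at the end of the JNK cascade, held 320 to 615 CPM over the e15.5 libraries and 115 to 190 CPM at p1. It fell by 1.42 on the log2 scale (SE 0.14; edgeR quasi-likelihood test, Benjamini-Hochberg adjusted p = 3.00e-08), and the ages did not overlap. Within the same list *Mapk10*, the neuronal JNK3 gene, rose by 0.97 (SE 0.10), the death receptor gene *Tnfrsf21* rose by 0.71, and *Sarm1*, the executor of axon degeneration, fell by 0.71. *Foxo1* was too low to test.

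**Figure D3:**
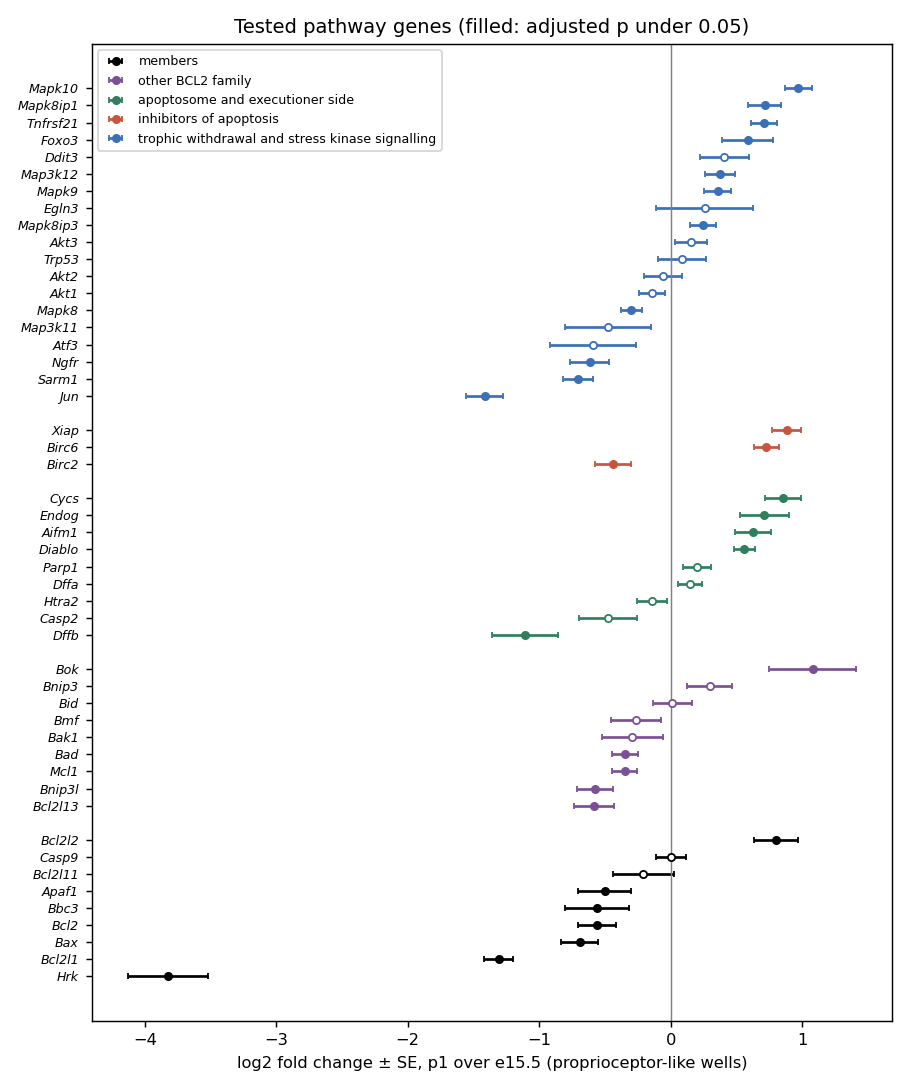
Log2 fold change at p1 over e15.5 (x axis, with SE from the edgeR test) for each tested gene of the 9 members and 4 pathway lists, in proprioceptor-like wells; filled points have an adjusted p under 0.05. *Hrk*, at -3.82, lies beyond every other gene shown, and *Xiap*, *Cycs* and *Mapk10* lie to the right of 0.

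The e15.5 libraries also allowed proprioceptor-like wells to be compared with connective tissue-like wells, in 10 and 9 library sums. Every member passed the test in this contrast, 7 higher and 2 lower in proprioceptor-like wells, where 40.8% and 39.6% of 12139 tested genes were called higher and lower. *Hrk* was the most different, at 0 to 10.1 CPM in the connective tissue-like sums and 79.3 to 248 CPM in the proprioceptor-like sums (log2 fold change 4.75, SE 0.28; edgeR quasi-likelihood test, Benjamini-Hochberg adjusted p = 2.43e-13). *Bcl2*, *Bcl2l1* and *Casp9* were also higher, by 1.45, 1.13 and 0.97 on the log2 scale. In CPM without TMM their ranges did not overlap, as held for 24.4% of all tested genes in this direction. With the TMM factors of library 4 (0.923 connective tissue-like, 1.01 proprioceptor-like) those of *Casp9* would overlap. *Bbc3* (1.08), *Bax* (0.38) and *Bcl2l2* (0.35) were higher with overlapping ranges. With wells thinned to 10000 UMIs the calls of *Bax* (0.27, adjusted p = 0.189) and *Bcl2l2* (-0.078, adjusted p = 0.756) were lost in the same test, and with classes of whole clusters that of *Bcl2l2* was lost (0.25, adjusted p = 0.0556).

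*Apaf1* went the other way, at 33.5, 41.6 and 71.3 CPM in the lowest, median and highest connective tissue-like sum. No proprioceptor-like sum exceeded 17.1 CPM. The log2 fold change was -1.86 (SE 0.15; edgeR quasi-likelihood test, Benjamini-Hochberg adjusted p = 8.23e-11), and 18.5% of all tested genes were lower without overlap. *Bcl2l11* was at 17.4, 36.0 and 50.7 CPM in the connective tissue-like sums and was lower in proprioceptor-like wells by -0.51 (SE 0.22; adjusted p = 0.0355 in the same test). Its call was lost in 4 of 13 other settings: with the library as a block, which pairs the classes of 1 library (-0.39), with library totals alone (-0.42), with wells thinned to 10000 UMIs (-0.58) and with the study's quantile filters (-0.37). It was also lost on leaving out e15.5 library 4, 5, 6, 7 or 10, with adjusted p over all settings from 0.00908 to 0.212.

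Against other sensory neuron-like wells, which had *Avil* plus *Isl1* but did not meet the proprioceptor rule, 1 member differed. This comparison rested on 3 sums of other neurons (libraries 1, 3 and 9) and 10 of proprioceptors, and 9.62% and 9.18% of 12999 tested genes were called higher and lower. With the library as a block, the number called went from 2444 to 1413. *Bcl2* stood at 53.7, 56.5 and 60.3 CPM in the other neurons, below every proprioceptor-like sum. It was 4.95-fold higher in proprioceptor-like wells (log2 fold change 2.31, SE 0.22; edgeR quasi-likelihood test, Benjamini-Hochberg adjusted p = 7.55e-07; 3.68e-24 to 0.00322 over the other settings), and 8.15% of all tested genes were higher without overlap.

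*Hrk* was at 19.7, 76.7 and 195 CPM in the other neurons of libraries 1, 3 and 9, a range that reached into that of the proprioceptor-like sums. The log2 fold change was 0.71 (SE 0.45; edgeR quasi-likelihood test, Benjamini-Hochberg adjusted p = 0.307). The proprioceptor-like wells of the same libraries were at 237, 200 and 79.3 CPM, so library 9 went the other way from libraries 1 and 3. The test result depended on library 9 and on the settings. Without library 9 the value was 1.84 with an adjusted p of 0.00762 in the same test, within a range of 0.00762 to 0.847 over all settings. With the study's quantile filters and with classes of whole clusters *Hrk* was also called higher in proprioceptor-like wells. The other 7 members did not pass, with log2 fold changes from -0.20 (*Bax*) to 0.53 (*Bcl2l11*) and SEs of 0.14 to 0.39. With 3 sums of other neurons, a p that misses the threshold does not show equal levels.

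**Figure D4:**
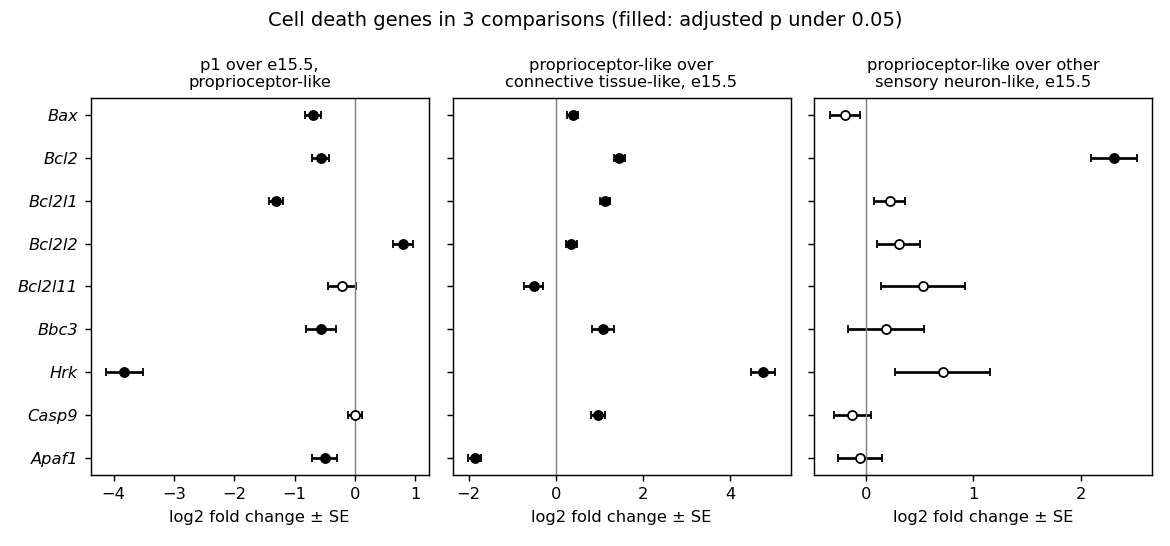
Log2 fold change with SE for the 9 cell death genes in 3 comparisons, with a separate x axis for each panel; filled points have an adjusted p under 0.05. In the left panel *Hrk* and *Bcl2l1* are the farthest below 0 and *Bcl2l2* is above it, and in the right panel *Bcl2* is the filled point.

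Among the remaining classes, wells that met the proprioceptor rule but held glial transcripts had *Hrk* at 91.0 to 178 CPM in 4 e15.5 libraries and 8.66 to 13.9 CPM in 4 p1 libraries. In the same wells *Bcl2l1* was at 57.0 to 86.9 CPM and 12.7 to 28.4 CPM, and *Bax* at 73.2 to 82.2 CPM and 28.9 to 40.1 CPM. In CPM without TMM the ages did not overlap in any of these 3 genes. The same held for *Bcl2*, at 250 to 372 CPM and 105 to 208 CPM, and for *Bcl2l2*, at 24.5 to 35.9 CPM and 64.5 to 88.5 CPM. The ages overlapped for *Bcl2l11*, *Bbc3*, *Casp9* and *Apaf1*. The share of all genes without overlap was not counted for this class, so this is a description only. At p1 the 6 other sensory neuron-like wells are too few to compare, with 17 *Hrk* UMIs in all (37.2 CPM), above the highest p1 proprioceptor-like sum. In unassigned wells, which are of mixed kind, the ages overlapped for *Hrk*, at 29.8 to 174 CPM in 8 e15.5 libraries and 4.82 to 36.9 CPM in 5 p1 libraries. They also overlapped for *Bcl2l1*, at 17.4 to 84.1 CPM and 18.4 to 26.6 CPM.

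**Figure D5:**
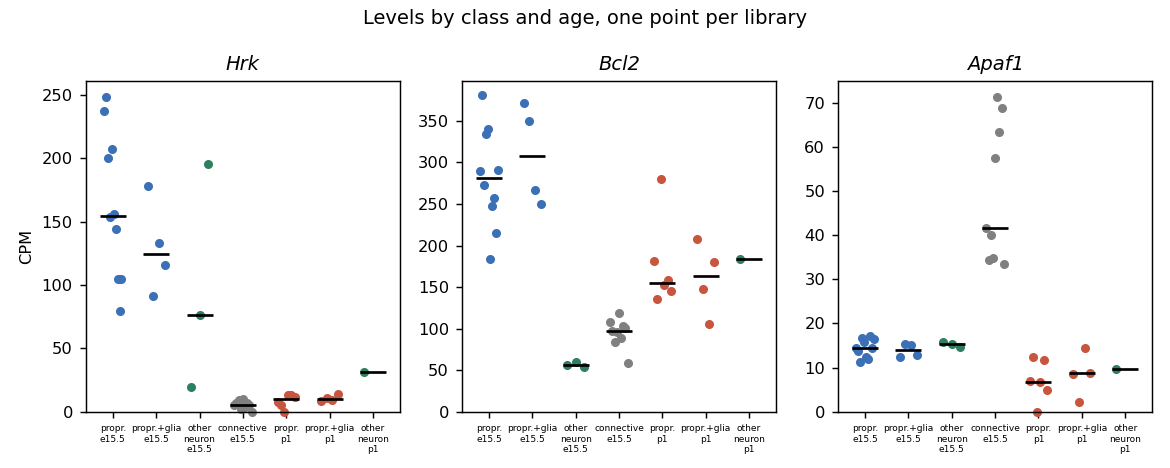
*Hrk*, *Bcl2* and *Apaf1* in CPM (linear axes from 0), 1 point per library with at least 5 wells of the class, by class and age, unassigned wells left out; black bars are medians. *Hrk* is at most 13.9 CPM in the p1 proprioceptor-like and glia-containing classes, 31.5 CPM in the 1 p1 library with other sensory neurons and at most 10.1 CPM in connective tissue, *Bcl2* is lowest in the e15.5 other sensory neurons, and *Apaf1* is highest in connective tissue.

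Within the proprioceptor-like wells, *Tox* and *Gabrg1* mark presumptive back- and limb-innervating neurons. At e15.5 the pooled *Hrk* level was 161 CPM in 113 wells with only a *Tox* UMI and 111 CPM in 44 wells with only a *Gabrg1* UMI, and *Bcl2* was at 312 and 234 CPM. The 84 wells with neither UMI, which were shallower (median 90912 UMIs), had *Hrk* at 179 CPM and *Bcl2* at 305 CPM. The 34 wells with both had them at 82.6 and 213 CPM. Pooled *Hrk* and *Bcl2* at e15.5 were thus lower in wells with a *Gabrg1* UMI than in wells without one, with or without a *Tox* UMI. Ranges over libraries overlapped between wells with only *Tox* (8 libraries) and only *Gabrg1* (4 libraries). For *Hrk* they were 79.6 to 272 CPM and 35.1 to 134 CPM, and for *Bcl2* 228 to 347 CPM and 170 to 346 CPM. The wells with a *Gabrg1* UMI were also deeper, with medians of 138670 (only *Gabrg1*) and 142661 UMIs (both). Wells with only *Tox* had a median of 119302 UMIs. At p1 *Hrk* was at 9.84 CPM in 64 wells with only *Tox* and 7.18 CPM in 74 with only *Gabrg1*, at 9.88 CPM in 51 with both and 11.4 CPM in 55 with neither, which is low throughout. These pooled levels come from different libraries in unequal numbers and were not tested.

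The genes whose levels were most like those of a member, over the 16 libraries after centring on the mean of each age, are given as a description of libraries that share depth and preparation. *Bcl2* was followed by *Ankib1* (Pearson r 0.91) and *Trove2* (0.89), *Bcl2l1* by *Lypla2* (0.85) and *Gjd2* (0.83), and *Bcl2l2* by *Rnf103* (0.89) and *Ahcyl2* (0.87). For *Hrk* they were *Izumo4* and *Gtf3c1* (both 0.96), and without p1 library 3, where *Hrk* had no UMI, the values were 0.87 and 0.92. The same library carried the closest likeness of *Bax*, to *Zfp777* (0.996, and 0.819 without it), of *Bbc3*, to *Recql* (0.958, and 0.823), and of *Apaf1*, to *Suv39h1* (0.988, and 0.903).

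Some members share sequence with other annotated genes. *Bax* and *Bcl2l2* each overlap a protein-coding gene model on their own strand (Gm45808 and Gm20521), which held 0 UMIs in all wells analysed here. The antisense transcript *D630008O14Rik* within *Bcl2* held 10 UMIs. How reads in shared parts were assigned is not stated in the labels or the methods.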

How the data were processed

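Single-cell mRNA was measured with CEL-Seq2, which tags the 3′ end of each mRNA, in 10 libraries of e15.5 ganglia and in 6 of p1 ganglia. The deposited values are raw UMI counts per gene and well, which the authors made by demultiplexing, mapping (GRCm38/mm10 in the submitters' processing notes) and counting with scruff. Members, lists and rules were chosen with earlier results of these data known. All 9 members and, per list, up to 4 genes of lowest adjusted p plus untestable ones were named; 2 genes of the apoptosome list are not reported here and were left out of its counts. Genes were named from GENCODE M21, promoters from RefSeq (GRCm38.p6). Libraries held 3701900 to 9299431 UMIs at e15.5 and 386517 to 8814472 at p1, which sets the precision for low genes. The 96 well numbers recur in every library. Doublets were not called. The study's methods describe 1 cell per well by sorting or picking, and whether any well held more was not tested.

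UMIs were summed per library and class (at least 5 wells) and tested with edgeR 4.0.16 (TMM, filterByExpr, quasi-likelihood F test, Benjamini-Hochberg, threshold 0.05) in R 4.3.3. An SE is the log2 change divided by the square root of F. CPM are UMIs per 1000000 of the sum, without TMM. In data simulated for the age comparison (12578 genes), 80% of 2-fold and 97% of 4-fold changes were recovered. The labels do not say that libraries came from separate animals, so p-values measure the spread between libraries, which may be technical. Classes of 1 library share its preparation, and same-library sums deviated together (r 0.04 to 0.45 in 9 pairs, 0.20 to 0.43 in 3). Alternatives covered scaling, filters, depth, class rules, DESeq2 1.42.0 and each library left out. Python 3.11.15 was used for levels and exact binomial intervals.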

Additional observations from a re-analysis of the deposited data

Results flagged for a closer look

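Levels of the 9 genes were screened for single libraries far from the rest of their group, and 4 of 63 groups held one, where chance gives about 1 in 20. In e15.5 proprioceptor-like wells, *Bax* was lowest in library 4 at 47.1 CPM (51 UMIs), with the next library at 66.4 CPM. In connective tissue-like wells, *Bax* was highest in library 10 at 92.1 CPM, from 11 UMIs, with the next at 62.8 CPM. The other 2 belong to p1 library 3, the thin sum of 5 wells: *Bax* at 0 CPM, with the next library at 34.2 CPM, and *Bcl2* at 280 CPM from 28 UMIs, with the next at 182 CPM.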

How the results depend on the processing

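Between the ages, the directions and calls of *Hrk*, *Bcl2l1*, *Bax*, *Bcl2* and *Bcl2l2* held in every setting run. Genes called numbered 7760, and 3382 with wells thinned to 10000 UMIs, where *Bcl2l11*, *Bbc3*, *Casp9* and *Apaf1* had too few UMIs to test. With the replicate block the count was 5961, and *Bbc3* and *Apaf1* lost their calls (-0.51 and -0.54). Replicate numbers did not pair libraries of the 2 ages, with r from -0.34 to 0.20 in 6 pairs and none of them best with its own number. *Casp9* went below 0, without passing the test, with DESeq2 (-0.020), its size factors (-0.020), library totals (-0.24), no filter (-0.11), the replicate block (-0.048), at least 10 wells (-0.046), the study's quantile filters (-0.017), whole clusters (-0.050), glia-containing wells counted in (-0.017) and a glia limit of 100 CPM (-0.043). It also did in libraries of at least 20 wells (-0.046) and in wells of 30000 to 150000 UMIs (-0.065), both added after seeing the data. Leaving out each library gave -0.059 to 0.041.

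Against connective tissue-like wells, 9754 genes were called, 15077 with no filter and 5281 with thinned wells, where 3 members passed and *Bcl2l2* turned to -0.078. Against other neurons, calls went from 2444 to 1413 with the replicate block (library), 1481 with at least 10 wells, which leaves 1 sum of other neurons whose spread is assumed to be like that of the proprioceptors, and 469 with thinned wells. The members past the test became 2 with at least 10 wells, the quantile filters and whole clusters, and were 1 to 2 on leaving out each library, *Hrk* being the one added. Signs that changed there, none past the test, were those of *Apaf1* (0.018 with no filter, 0.050 with at least 3 wells, 0.10 with quantile filters, 0.067 with clusters), *Bcl2l1* (-0.12 with at least 3 wells, thinned wells and clusters), *Casp9* (0.12 with at least 10 wells, 0.066 with quantile filters) and *Bax* (0.65 thinned). Leaving out each library moved *Bbc3* over -0.052 to 0.45 and *Casp9* over -0.21 to 0.026. Besides these and *Bcl2l11* against connective tissue-like wells (-0.39), the block changed no call of a member. The causes were not tested.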
